A study of Caenorhabditis elegans with 8 samples.

Results

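The genes examined here are 31 regulators, enzymes and matrix proteins of the moulting cycle of Caenorhabditis elegans, chosen by name and found by their WormBase symbols among the 20392 genes of the count table. They comprise 6 transcriptional and timing regulators, 6 kinase, ankyrin-repeat and trafficking genes, 7 matrix proteins and 4 other moulting genes. The rest are 2 protease inhibitors, 2 cross-linking enzymes and 4 collagen-processing enzymes. Total RNA was sequenced from synchronized first-stage (L1) larvae that had hatched in buffer for 16 h and fed for 2.5 h. All groups were sorted for animals lacking the green balancer, and each of the 4 genotypes had 2 libraries (a and b). Wild-type was the Bristol strain N2, and the cec-4 mutant carried the allele ok3124, which removes the heterochromatin anchor CEC-4. The lamin Y59C strain carried an integrated transgene of GFP-tagged lmn-1 with the Y59C mutation under the baf-1 promoter. It also carried a wild-type unc-119 copy in an unc-119(ed-3) background, and no change of the endogenous lmn-1 is listed for it. The double mutant had the same transgene and background together with cec-4(ok3124). Each genotype was 1 strain, and a strain with unmutated GFP-lamin was not analysed here. The presence of the transgene therefore cannot be told apart from the Y59C mutation. The labels do not say whether libraries a and b came from separate cultures, so the p-values measure the spread between libraries, which may be technical.

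Nematode larvae replace their cuticle at each moult. The hypodermis first secretes a temporary apical matrix, the precuticle, made of zona pellucida proteins and related factors, and then the collagens of the new cuticle, which are trimmed, hydroxylated and cross-linked. Nuclear receptors and other transcription factors drive waves of expression that return with each larval stage, and endocytosis through the kinases NEKL-2 and NEKL-3 and the receptor LRP-1 is needed to shed the old cuticle. Many of these genes are known to rise and fall strongly within a larval stage, so their level depends on how far the larvae have developed.

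The libraries held 30924676 to 57069281 counts, the deepest being wild-type b. As a check of the genotypes, cec-4 was at 4.35 to 5.04 CPM (counts scaled to a common library total) in the 4 libraries of the cec-4 strains and at 12.3 to 14.5 CPM in the others. The marker unc-119 was at 41.5 to 43.3 CPM with the transgene and 22.4 to 24.3 CPM without it. The gene lmn-1 was at 488 to 523 CPM with the transgene and 429 to 473 CPM without it. Of the larval tissues, 5 of 10 hypodermal markers and all 8 intestinal markers reached 1 CPM in every library. The 11 markers of adults and late stages summed to 0.603 to 1.08 CPM, with 5 of them at 0 throughout. Lamin Y59C a was the lowest library for 11 of the 30 tested moulting genes (36.7%, against 15.2% of all tested genes). Double mutant b was the highest for 6 (20%, against 16.4%), a share near that of all genes. Fold changes without both libraries are given for nhr-25, noah-2 and mlt-11 alone. In whole larvae, fewer cells of a type and less RNA per cell cannot be told apart.

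Most of the moulting genes were already transcribed in these larvae, and their levels per length of exon spanned a wide range. In wild-type the transmembrane leucine-rich repeat gene pan-1 was highest, at 88.8 CPM per kilobase of exon. It was followed by dpy-18, an alpha subunit of the prolyl 4-hydroxylase that modifies collagens, at 49.1 CPM per kilobase, and the peroxidase gene mlt-7 at 38.0. The astacin-type procollagen protease gene dpy-31 was at 35.4 CPM per kilobase, and phy-2, the other alpha subunit, at 25.3. At the lower end were the fibrillin-like matrix gene fbn-1 at 0.879, the hedgehog-related gene qua-1 at 0.551 and the Kunitz-type inhibitor gene mlt-11 at 0.475 CPM per kilobase. The other Kunitz-type gene, bli-5, had 0 to 3 counts in each library and was the only one of the 31 not tested. Genes of one role were thus not at one level, and all comparisons between genotypes below are of CPM within a gene. Exons of 9 of these genes overlap a coding gene on the opposite strand, by 9 to 124 bases, and those of mlt-10 overlap 2 coding genes on its own strand by 125 bases. Whether counting used the strand is not given in the sources used here.

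**Figure D1:**
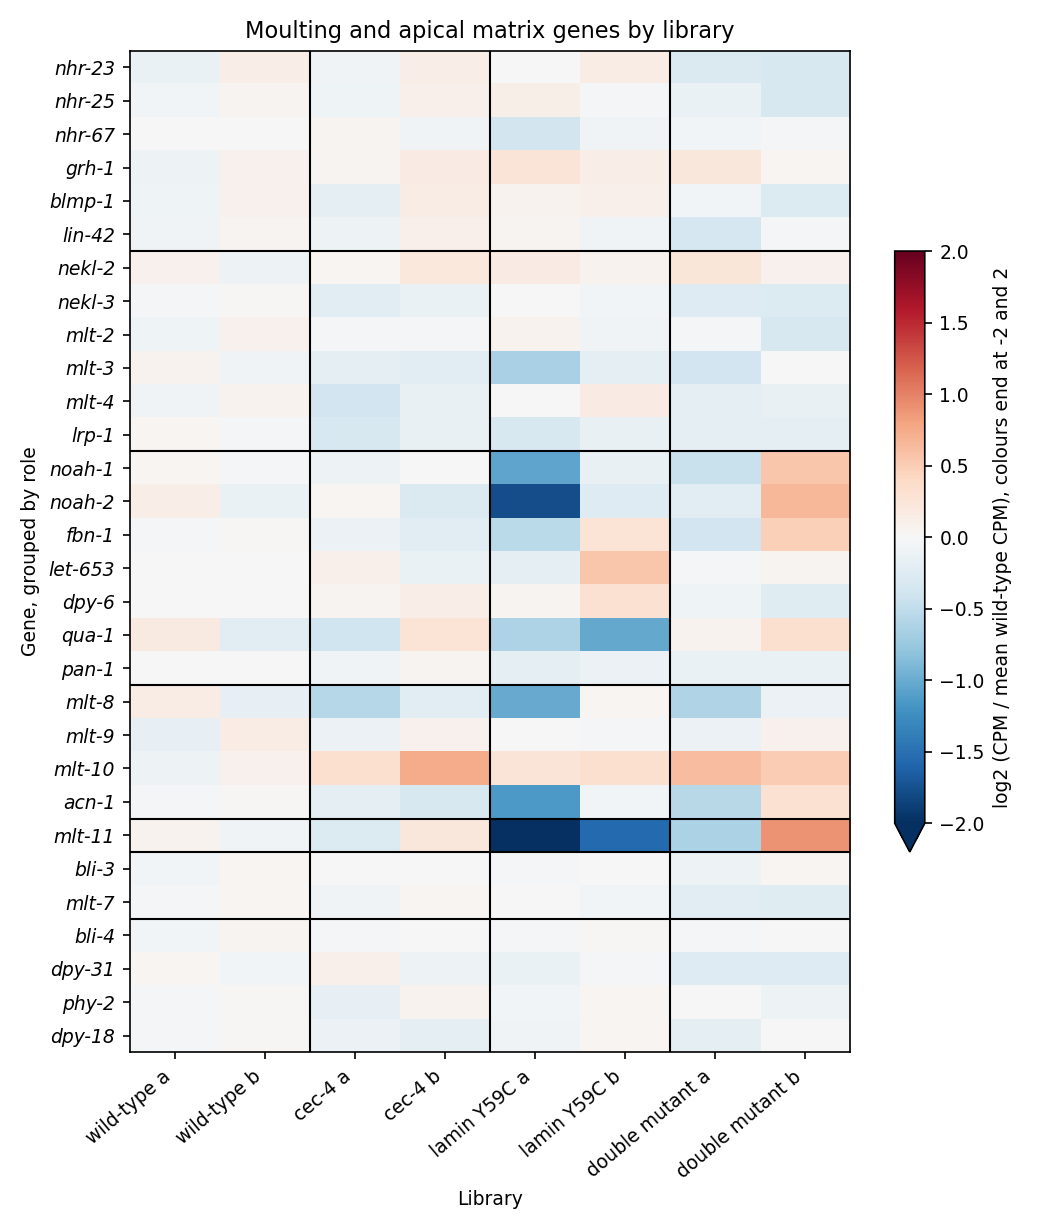
Level of the 30 tested moulting and apical matrix genes in each of the 8 libraries, as log2 of CPM over the mean wild-type CPM of the same gene, with genes (rows) grouped by role by horizontal lines. The strongest colours lie in lamin Y59C a, where the inhibitor gene mlt-11 was at 0.441 CPM and the matrix gene noah-2 at 1.58 CPM, while the rows of bli-3, bli-4 and phy-2 stay pale.

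None of the 30 tested genes passed the test in any of the 8 comparisons (edgeR quasi-likelihood F-test, adjusted p under 0.05 over 14355 genes). In lamin Y59C against wild-type 0 were called, where 0.509% of all tested genes were, and 5 had an unadjusted p under 0.05 (16.7%, against 14.6% of all genes). Without CEC-4 alone, against wild-type, the count was 0 (0.0209% of all genes), with 3 at an unadjusted p under 0.05 (4.88% of all genes). For the double mutant against wild-type it was 0 (2.21% of all genes), with 7 at an unadjusted p under 0.05 (23.3%, against 17.4%). The double mutant against lamin Y59C gave 0 calls (0.676% of all genes) and 9 genes at an unadjusted p under 0.05 (30.0%, against 13.2%). DESeq2 called 1 in this comparison, dpy-6 (1.72% of all genes it tested). It called 0 in the other 7, where it called 1.71% of all genes in lamin Y59C against wild-type and 0.0925% in the cec-4 mutant. The other shares were 3.90% for the double mutant against wild-type, 2.05% against the cec-4 mutant, 0.488% for the interaction, 2.97% for the transgene strains and 0.575% for the cec-4 strains. In the double mutant against wild-type DESeq2 gave an adjusted p to only 27 of the 30 genes. Against the cec-4 mutant the double mutant gave 0 calls (0.773% of all genes), with 5 at an unadjusted p under 0.05 (13.2% of all genes). The interaction (double mutant over cec-4 mutant, less lamin Y59C over wild-type) gave 0 (0.0348% of all genes), with 7 at an unadjusted p under 0.05 (23.3%, against 10.1%). The 4 transgene libraries against the other 4 gave 0 calls (1.96% of all genes), with 4 at an unadjusted p under 0.05 (17.2% of all genes). The 4 libraries without CEC-4 against the other 4 gave 0 (0.118% of all genes), with 8 at an unadjusted p under 0.05 (26.7%, against 9.49%). The median log2 fold change of the 30 genes was -0.02 in lamin Y59C and -0.08 in the double mutant, each against wild-type, where that of all genes was 0.00 and 0.01. Between the double mutant and lamin Y59C it was -0.01, beside 0.00 for all genes. With 2 libraries a group these genes had 95% intervals of very different width, so a missing call does not show an unaltered level. The comparisons also share libraries with one another.

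Among the regulators, the nuclear receptor genes nhr-23 and nhr-25 were lowest in the double mutant. The receptor NHR-23, an ortholog of the ROR receptors, is required for moulting and for the expression of many cuticle genes. Its gene (WBGene00003622, I:7214745-7221299, WBcel235) was at 16.4 and 19.7 CPM in wild-type, 17.1 and 19.7 in the cec-4 mutant and 17.99 and 19.97 in lamin Y59C, libraries a and b. In the double mutant it was at 14.7 and 14.4 CPM, below every library of the other genotypes. The fitted log2 fold change was -0.39 ± 0.11 (SE) between the double mutant and lamin Y59C (edgeR adjusted p = 0.170, 95% interval -0.63 to -0.14). Against wild-type it was -0.32 ± 0.11 (edgeR adjusted p = 0.161), and -0.17 without wild-type b (edgeR adjusted p = 0.542). The receptor NHR-25, an ortholog of FTZ-F1, acts in moulting and in the epidermis. Its gene was at 48.5 and 52.4 CPM in wild-type, 47.4 and 54.4 in the cec-4 mutant, 54.96 and 49.1 in lamin Y59C, and 45.9 and 40.5 in the double mutant. Here too both double mutant libraries lay below the other 6, by a smaller margin (-0.27 ± 0.09 against lamin Y59C, edgeR adjusted p = 0.234). That value was -0.10 without both lamin Y59C a and double mutant b. These are the highest and the lowest library of nhr-25, so leaving them out shrinks the value whatever its origin.

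The other 4 regulators did not separate the double mutant from the rest. The zinc-finger repressor gene blmp-1, whose product is related to mammalian Blimp1, was at 66.8 and 75.4 CPM in wild-type and 62.5 and 78.6 in the cec-4 mutant. In lamin Y59C it was at 74.5 and 76.4 CPM and in the double mutant at 68.7 and 58.98, so the double mutant overlapped both strains without the transgene. The Grainyhead gene grh-1 was at 13.6 to 17.3 CPM over all libraries, and it was lowest in wild-type a and highest in lamin Y59C a. The gene lin-42, a homolog of the clock gene Period that times larval events, was at 4.17 to 5.65 CPM. The tailless-like receptor gene nhr-67 was at 9.10 and 9.12 CPM in wild-type and 7.06 and 8.68 in lamin Y59C, with the other 2 genotypes at 8.71 to 9.42. Lamin Y59C a was thus lowest for nhr-67, and library b of that strain lay just below the rest.

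The pattern of nhr-23 and nhr-25 was shared by 4 more of the genes. Both double mutant libraries were below all other 6 in 6 of the 30 (20%), where this held for 8.90% of all tested genes. Both were above the other 6 in 0, against 8.65% of all genes. The count was made after the values were seen and has no test. The gene mlt-7 encodes a peroxidase that acts with the dual oxidase BLI-3 in cross-linking the cuticle. It was at 92.8 and 98.3 CPM in wild-type, 90.8 and 98.5 in the cec-4 mutant, 94.9 and 92.2 in lamin Y59C, and 81.4 and 80.9 in the double mutant. The 2 double mutant libraries were close to each other and apart from the rest. Its log2 fold change was -0.24 ± 0.06 against wild-type (edgeR adjusted p = 0.0770, 95% interval -0.37 to -0.10) and -0.21 ± 0.06 against lamin Y59C (edgeR adjusted p = 0.180).

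The procollagen protease gene dpy-31 was at 76.1 and 71.3 CPM in wild-type, 78.8 and 68.4 in the cec-4 mutant, 67.4 and 72.6 in lamin Y59C, and 61.6 and 61.4 in the double mutant. The double mutant was again lowest, by 0.26 ± 0.07 (log2, SE) against wild-type and 0.19 ± 0.07 against lamin Y59C (edgeR adjusted p = 0.106 and 0.315). The mucin-like gene dpy-6 was at 80.2 and 78.8 CPM in wild-type, 82.8 and 87.5 in the cec-4 mutant, 82.4 and 97.7 in lamin Y59C, and 74.5 and 67.5 in the double mutant. Levels were thus highest in lamin Y59C b and lowest in double mutant b. Between these strains the log2 fold change was -0.34 ± 0.08 (edgeR adjusted p = 0.110, 95% interval -0.53 to -0.16), and DESeq2 gave an adjusted p of 0.0284. Without lamin Y59C b the value was -0.21 (edgeR adjusted p = 0.316). The interaction value of dpy-6 was -0.44 ± 0.12 (edgeR adjusted p = 0.269). The kinase gene nekl-3 was at 15.4 and 16.0 CPM in wild-type, 13.4 and 14.4 in the cec-4 mutant, 15.8 and 15.1 in lamin Y59C, and 13.1 and 13.1 in the double mutant. It was lower in both strains without CEC-4 than in both with it, with no overlap among the 4 libraries a side (-0.21 ± 0.06, edgeR adjusted p = 0.288). Such a lack of overlap in the lower direction was seen for 1.60% of all genes and for 2 of the 30, the other being mlt-4.

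**Figure D2:**
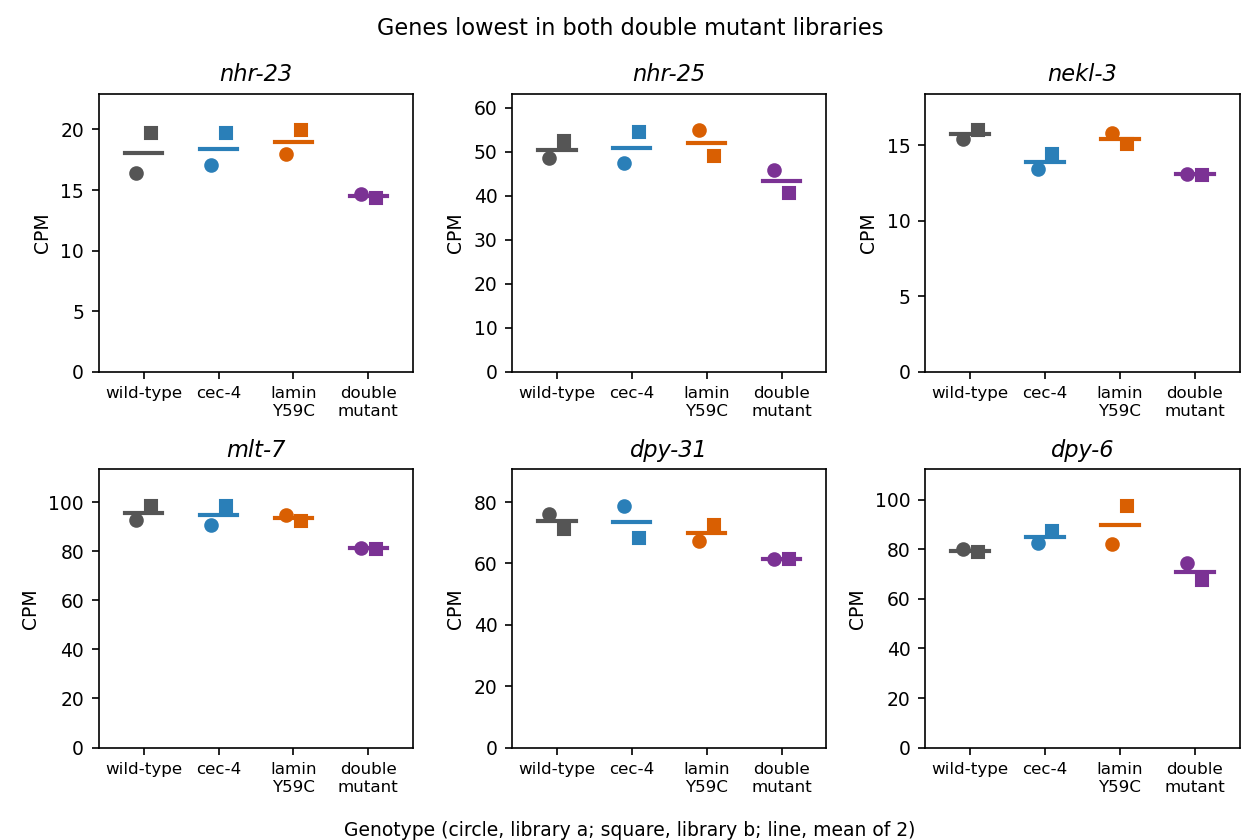
CPM of the 6 genes whose double mutant libraries both lay below all other libraries, one panel a gene, with circles for library a, squares for library b and lines for the mean of the 2 libraries of a genotype. The margin is small, from 81.4 CPM against at least 90.8 CPM for mlt-7 to 13.1 CPM against at least 13.4 CPM for nekl-3.

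The largest differences in the whole set were in mlt-11, and they rested on libraries that disagreed within a genotype. This gene (WBGene00012186, V:20667205-20678537, WBcel235) encodes a secreted protein with many Kunitz-type protease inhibitor domains that is needed for moulting. It had 155 and 250 counts in wild-type, 118 and 207 in the cec-4 mutant, 14 and 50 in lamin Y59C, and 98 and 272 in the double mutant. In CPM these were 4.86 and 4.44, 3.86 and 5.42, 0.441 and 1.58, and 3.00 and 8.70. Both lamin Y59C libraries were below the other 6, and the double mutant libraries lay on either side of wild-type. The log2 fold change was -2.19 ± 0.55 in lamin Y59C against wild-type (edgeR adjusted p = 0.127, 95% interval -3.42 to -0.97). It was 2.53 ± 0.55 in the double mutant against lamin Y59C (edgeR adjusted p = 0.0781, 95% interval 1.30 to 3.75). Leaving out 1 library at a time, the first value ran from -3.38 (without lamin Y59C b) to -1.55 and the second from 1.57 (without double mutant b) to 3.71, with adjusted p of 0.0610 to 0.657 and 0.0616 to 0.491. The first passed when the 2 groups were fitted alone (adjusted p = 0.0471), and the second passed without the filter on low counts (adjusted p = 0.0262).

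The zona pellucida proteins NOAH-1 and NOAH-2 are part of the precuticle matrix that holds larvae together. The gene noah-1 was at 9.45 and 8.96 CPM in wild-type, 8.60 and 9.24 in the cec-4 mutant, 4.44 and 8.30 in lamin Y59C, and 6.74 and 13.6 in the double mutant. The gene noah-2 was at 5.87 and 4.88 CPM in wild-type, 5.49 and 4.42 in the cec-4 mutant, 1.58 and 4.48 in lamin Y59C, and 4.60 and 8.54 in the double mutant. In both genes lamin Y59C a was the lowest library and double mutant b the highest, while the other 2 genotypes stayed close together. For noah-2 the log2 fold change between the double mutant and lamin Y59C was 1.11 ± 0.39 (edgeR adjusted p = 0.257). It was 0.55 without lamin Y59C a, 0.60 without double mutant b and 2.05 without lamin Y59C b. It was 0.04 when lamin Y59C a and double mutant b were both left out, a setting chosen after the values were seen. For mlt-11 the same setting gave 0.93, and -1.55 for lamin Y59C against wild-type. In both genes these are the lowest and the highest library. Leaving them out therefore shrinks the difference between the strains whatever its origin, and no conclusion is drawn from it.

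The same libraries were lowest and highest in fbn-1 and acn-1. The fibrillin-like gene fbn-1 was at 5.80 and 10.2 CPM in lamin Y59C and 6.47 and 11.7 in the double mutant, with 7.22 to 8.54 in the other 4 libraries. The gene acn-1, which encodes a protein like angiotensin-converting enzyme without its active site, was at 2.30 and 4.89 CPM in lamin Y59C and 3.46 and 6.27 in the double mutant. Its other 4 libraries were at 4.06 to 5.18 CPM. With mlt-11, noah-1 and noah-2, these made 5 of the 30 genes (16.7%) that were lowest in lamin Y59C a and highest in double mutant b, where 3.70% of all tested genes were. That count too was made after the values were seen and has no test. The hedgehog-related gene qua-1 was highest in double mutant b but lowest in lamin Y59C b. It was at 2.42 and 1.83 CPM in wild-type, 1.60 and 2.56 in the cec-4 mutant, 1.39 and 1.04 in lamin Y59C, and 2.24 and 2.66 in the double mutant. Here the libraries of lamin Y59C lay together below the rest (-0.78 ± 0.27 against wild-type, edgeR adjusted p = 0.236), and the double mutant was higher than lamin Y59C by 1.01 ± 0.28 (edgeR adjusted p = 0.159).

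**Figure D3:**
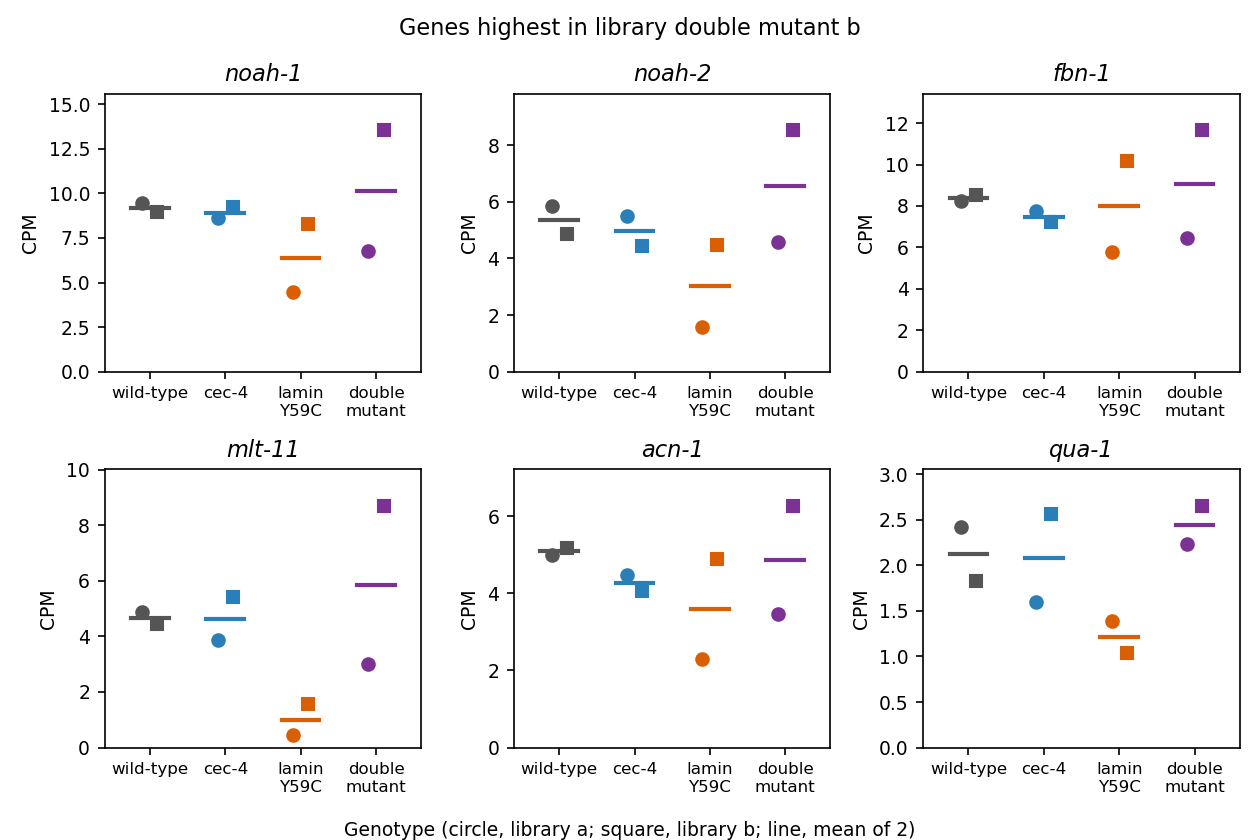
CPM of the 6 genes that were highest in library double mutant b, one panel a gene, with circles for library a, squares for library b and lines for the mean of 2 libraries. For noah-1, noah-2, fbn-1, acn-1 and mlt-11 library b lies well above library a in both strains with the transgene. Their choice as lowest in lamin Y59C a and highest in double mutant b fixed that direction. For mlt-11 the lamin Y59C libraries, at 0.441 and 1.58 CPM, are below the rest.

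For the 5 genes noah-1, noah-2, fbn-1, acn-1 and mlt-11 library b was above library a in both strains with the transgene. Choosing them as lowest in lamin Y59C a and highest in double mutant b fixed that direction in advance. In lamin Y59C the ratio of b to a was 1.76 (fbn-1) to 3.58 (mlt-11). In the double mutant the ratio of b to a was 1.81 (fbn-1 and acn-1) to 2.90 (mlt-11). The corresponding ratios were 0.83 to 1.04 in wild-type and 0.80 to 1.40 in the cec-4 mutant. The choice of genes set no direction there, so no conclusion is drawn from the contrast. The letter gives no order, and the labels do not say that it marks a shared culture or day. Of the 30 genes 7 had a highest library over 2-fold the lowest, where 14.1% of all tested genes did, and these were the 5 with qua-1 and mlt-8. Over all 30 genes the median size of the difference between libraries was 0.11 to 0.17 on the log2(CPM + 0.5) scale. For all tested genes it was 0.09 to 0.11. The gene mlt-8, at 1.20 and 2.49 CPM in lamin Y59C, and let-653, a zona pellucida gene of the excretory duct lumen at 11.5 and 19.1 CPM there, had a wide gap in lamin Y59C but a smaller one in the double mutant. The double mutant libraries of let-653 were at 12.7 and 13.6 CPM.

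**Figure D4:**
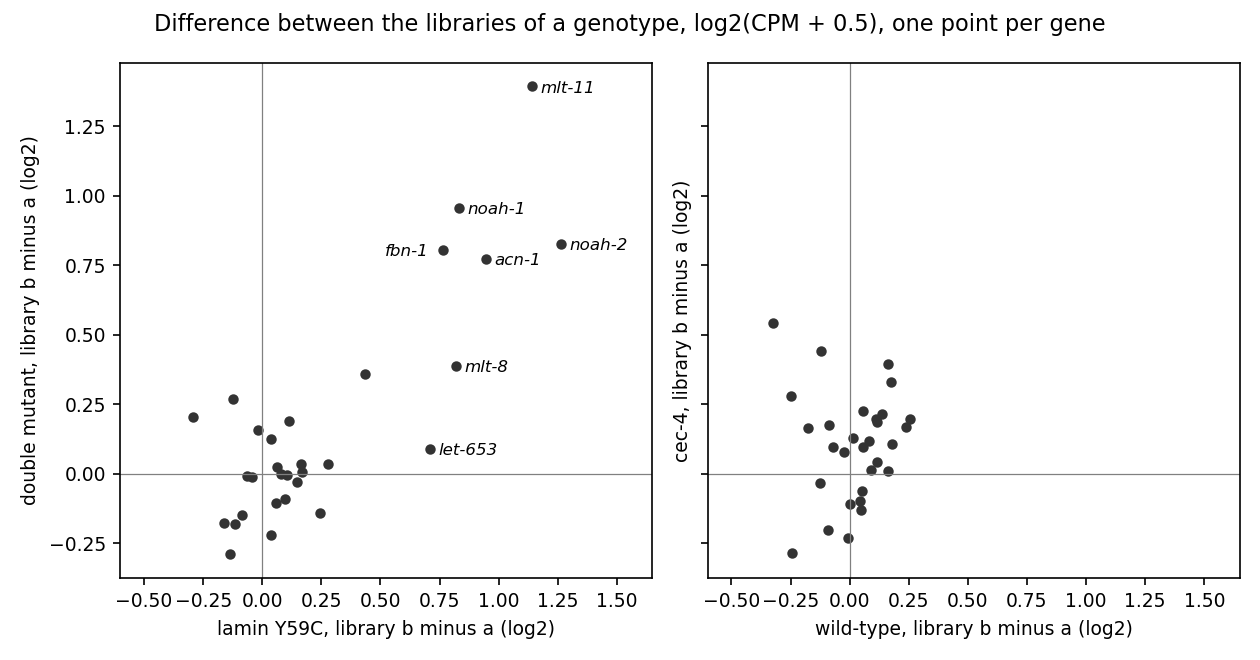
Difference between libraries b and a of one genotype on the log2(CPM + 0.5) scale, one point for each of 30 genes, with lamin Y59C against the double mutant on the left and wild-type against the cec-4 mutant on the right. On the left noah-1, noah-2, fbn-1, acn-1 and mlt-11 stand at 0.76 or more on both axes. Their choice as lowest in lamin Y59C a and highest in double mutant b places them above 0 on both. On the right the point farthest from 0 is qua-1, at -0.33 and 0.54.

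Some hypodermal and seam markers were low or high in the same libraries, and others were not. The furrow collagen gene dpy-7 was at 0.126 and 0.505 CPM in lamin Y59C and 0.552 and 2.59 in the double mutant. Its other 4 libraries were at 0.941 to 1.51 CPM. The seam cell gene wrt-10 was at 0.189 and 0.568 CPM in lamin Y59C and 0.981 and 3.14 in the double mutant. Its other 4 libraries were at 1.37 to 1.82 CPM. The double mutant libraries of both genes thus lay on either side of wild-type. The collagen gene rol-6 was at 0.0315 and 0.252 CPM in lamin Y59C and at 1.56 to 2.88 CPM in the other 6 libraries. The collagen gene dpy-13 was low in lamin Y59C (0.252 and 0.757 CPM), but its double mutant libraries, at 1.655 and 1.28 CPM, were below wild-type, at 2.07 and 2.22. The collagen gene bli-1 was highest in the lamin Y59C libraries, at 0.221 CPM in each, beside 0.0919 to 0.183 CPM in the others. In lamin Y59C a 0.126 CPM is 4 counts. The values of dpy-7, wrt-10, rol-6, dpy-13 and bli-1 in that library therefore rest on few counts, and the order of bli-1 says little. The hypodermal transcription factor gene lin-26 was at 82.8 and 83.8 CPM in the double mutant and 88.5 to 96.4 CPM in the other 6 libraries, so both double mutant libraries were below the rest, as for nhr-23 and mlt-7. The junction gene ajm-1 was at 310 to 323 CPM in the 4 transgene libraries and 327 to 346 in the other 4, a separation like that of pan-1. The transcription factor gene elt-1 was at 23.5 to 26.3 CPM and the junction gene dlg-1 at 269.98 to 299 CPM, with neither separation. The 10 hypodermal markers summed to 751 and 752 CPM in lamin Y59C and 744 and 761 in the double mutant. The sums were 808 and 807 in wild-type and 804 and 781 in the cec-4 mutant, so all 4 transgene libraries were lower. Most of the sum came from ajm-1 and dlg-1, at 346 and 299 CPM in wild-type a. Low sums were not limited to hypodermal markers. In lamin Y59C the pharyngeal sums (2660 and 2564 CPM) and the neuronal sums (562 and 565 CPM) were also below the other 6 libraries. Those of intestine and body wall muscle overlapped, and those of the germ line were above the other 6. The gene elt-3 overlapped, at 39.7 to 47.2 CPM with the transgene and 38.4 to 48.2 without it. The gene wrt-2 was at 0.189 to 0.416 CPM with the transgene and 0.458 to 1.02 without it. The 9 seam cell markers summed to 133 and 147 CPM in the double mutant and 157 to 174 in the others, with nhr-73 at 0 throughout. Among them, only grd-10 and egl-18 had both double mutant libraries below the other 6. The gene grd-10 was at 48.1 and 53.4 CPM there, against 59.7 to 69.8 CPM. For egl-18 the values were 35.3 and 34.5 CPM, against 40.2 to 42.7 CPM. The double mutant overlapped other genotypes for elt-6, ceh-16, rnt-1, grd-3, bro-1 and wrt-10. The lower sum was thus not shared by every seam marker. The part of these markers, and of developmental progress, in the values of the matrix genes and of the genes low in the double mutant was not tested.

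The genes of endocytosis and its kinases lay in narrower ranges. The receptor gene lrp-1, whose product is a megalin-like protein of the hypodermis, was at 219.7 and 207 CPM in wild-type. It was at 171 and 193 in the cec-4 mutant, 170.5 and 192 in lamin Y59C, and 187 and 188 in the double mutant. Wild-type was above every other library, by 0.24 ± 0.08 over lamin Y59C, 0.23 ± 0.08 over the cec-4 mutant and 0.18 ± 0.08 over the double mutant on the log2 scale. Adjusted p-values from edgeR were 0.199, 0.897 and 0.250, and these comparisons share the wild-type libraries. As fold changes against wild-type, lamin Y59C was at -0.15 without its library a, and the cec-4 mutant at -0.15 without its library a. The gene mlt-4, which encodes an ankyrin-repeat partner of the NEKL kinases, was at 4.71 to 5.55 CPM in the 4 libraries without CEC-4 and 5.81 to 6.88 in the others (-0.25 ± 0.09, edgeR adjusted p = 0.416). The related gene mlt-3 was at 11.4 and 10.4 CPM in wild-type and 6.96 and 9.59 in lamin Y59C (-0.39 ± 0.16, edgeR adjusted p = 0.295). That value was -0.18 without lamin Y59C a and -0.64 without lamin Y59C b. The cec-4 mutant, at 9.58 and 9.37 CPM, was also below wild-type, and the double mutant, at 8.397 and 10.9 CPM, overlapped it. The third of these ankyrin genes, mlt-2, was at 7.46 to 9.90 CPM and the kinase gene nekl-2 at 5.86 to 7.39 CPM over all libraries.

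Of the remaining moulting genes, mlt-10 was the one lowest in wild-type. It was at 3.89 and 4.42 CPM in wild-type, 5.17 and 6.96 in the cec-4 mutant, 4.95 and 5.17 in lamin Y59C, and 6.37 and 5.89 in the double mutant. No other genotype overlapped wild-type, and the log2 fold change in the double mutant was 0.55 ± 0.15 (edgeR adjusted p = 0.102, 95% interval 0.21 to 0.90). The value in the cec-4 mutant was 0.54 ± 0.15 (edgeR adjusted p = 0.897; 0.30 without cec-4 b) and that in lamin Y59C 0.27 ± 0.16 (edgeR adjusted p = 0.473). These 3 comparisons share the wild-type libraries. The gene mlt-9 was at 1.79 to 2.20 CPM in all libraries, and its group means were within 1.97 to 1.995 CPM. The gene pan-1 was at 195 and 197 CPM in wild-type, 186 and 204 in the cec-4 mutant, 171 and 181 in lamin Y59C, and 179 and 178 in the double mutant. All 4 transgene libraries were below the other 4 (-0.14 ± 0.04, edgeR adjusted p = 0.129), which held in the lower direction for 4.44% of all genes and for pan-1 alone of the 30.

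Some enzymes of the cuticle were nearly level across the genotypes. The dual oxidase gene bli-3 had group means of 20.2 to 20.6 CPM, and the 95% interval of its log2 fold change in lamin Y59C against wild-type was -0.17 to 0.16. The gene bli-4, which encodes a proprotein convertase that trims collagens, had means of 159 to 162 CPM. Its interval was -0.14 to 0.12 in the same comparison and -0.13 to 0.13 between the double mutant and lamin Y59C. The prolyl 4-hydroxylase genes phy-2 and dpy-18 had means of 42.4 to 44.0 and 81.4 to 90.4 CPM. For phy-2 the interval in lamin Y59C against wild-type was -0.18 to 0.17, and for dpy-18 it was -0.18 to 0.14. The dpy-18 libraries of the cec-4 mutant, at 83.1 and 79.7 CPM, were below wild-type, at 88.7 and 92.1. Over the strains without CEC-4 its log2 fold change was -0.12 ± 0.05 (edgeR adjusted p = 0.508, 95% interval -0.23 to -0.0035), and -0.07 without double mutant a. By contrast the interval of noah-1 in lamin Y59C against wild-type ran from -1.22 to 0.17. Both a fall to a fraction of 0.429 and a small rise would lie within it.

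**Figure D5:**
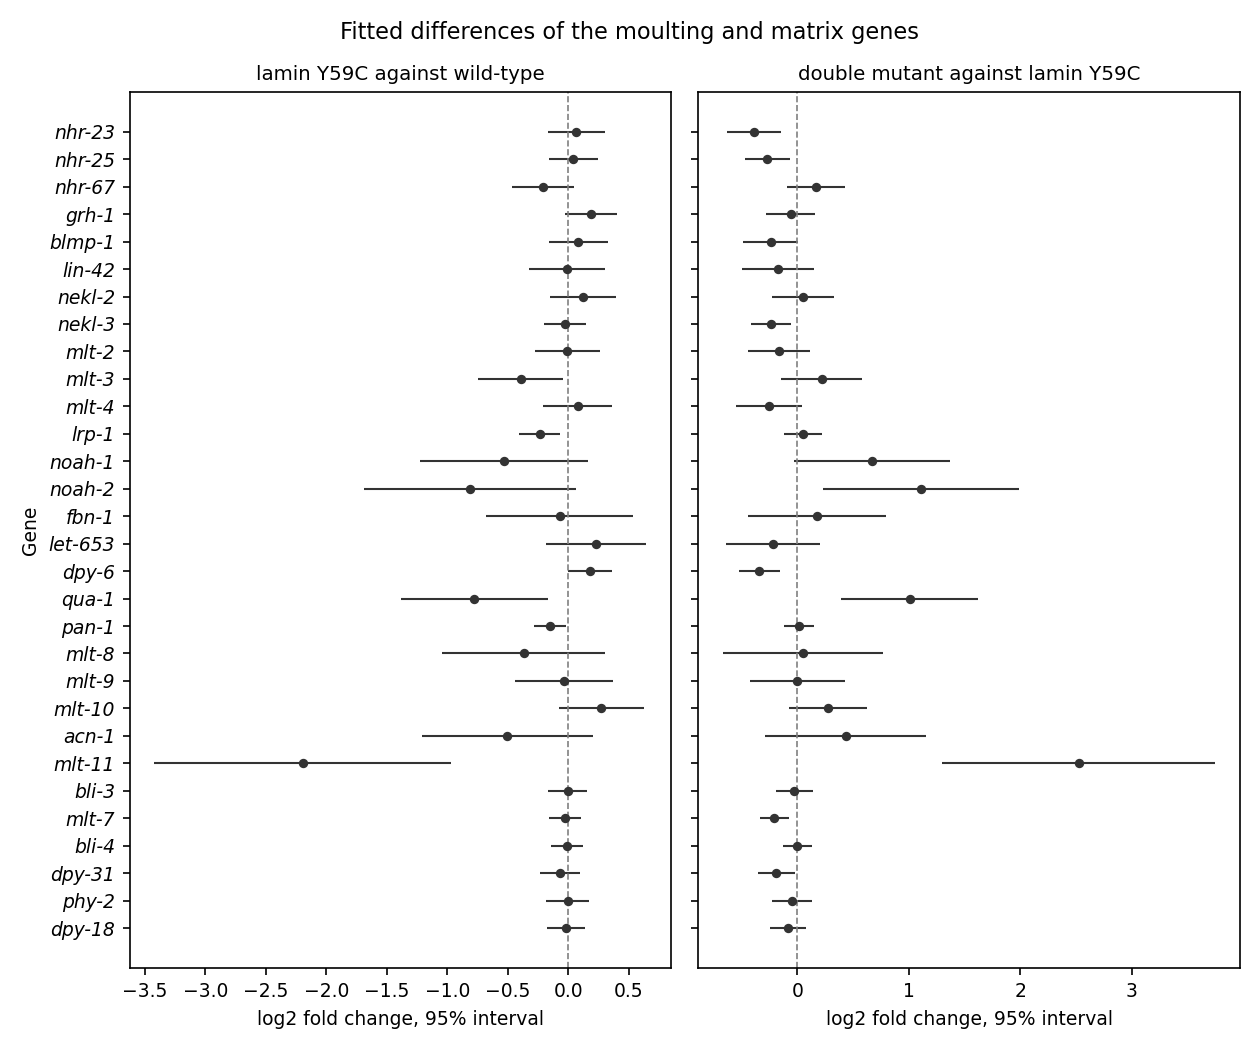
Fitted log2 fold changes of the 30 genes with 95% intervals, lamin Y59C against wild-type on the left and the double mutant against lamin Y59C on the right, the x axes having different ranges. The intervals of mlt-11 run from -3.42 to -0.97 and from 1.30 to 3.75, whereas those of bli-4 stay within -0.14 to 0.13; an interval apart from 0 is not a call after adjustment.

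Genes whose libraries did not overlap between 2 genotypes were counted in each direction, with no test. In lamin Y59C 3 of the 30 genes were higher than wild-type without overlap (10%, against 25% of all genes) and 9 lower (30.0%, against 23.7%). In the double mutant 1 was higher than wild-type (3.33%, against 25.7% of all genes) and 10 lower (33.3%, against 24.8%). Between the double mutant and lamin Y59C 5 were higher (16.7%, against 22.5% of all genes) and 8 lower (26.7%, against 21.9%). In the cec-4 mutant 2 were higher than wild-type (6.67%, against 18% of all genes) and 8 lower (26.7%, against 16.3%), and the double mutant had 0 above the cec-4 mutant (0%, against 20.3% of all genes) and 7 below it (23.3%, against 21.6%).

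Other genes of the moulting pathway were examined in 6 lists. The lists held 15 tested regulators, 23 genes of trafficking and sterol uptake, 30 cuticlins and related zona pellucida genes, 20 other apical matrix genes, 7 cross-linking genes and 19 collagen-processing genes. Across the 6 lists and 8 comparisons 1 call was made, a fall of the peroxidase gene skpo-3 between the double mutant and lamin Y59C. It was at 72.8 and 71.5 CPM in wild-type, 69.9 and 74.7 in the cec-4 mutant, 79.5 and 78.5 in lamin Y59C, and 58.8 and 62.2 in the double mutant (-0.38 ± 0.06, edgeR adjusted p = 0.0228). The double mutant was below all other libraries, as it was for mlt-7. The call ended without either lamin Y59C library or either double mutant library (adjusted p of 0.0600 to 0.168) and with the library letter as a block (0.0555), and DESeq2 gave 0.000666. Among regulators, the nuclear receptor gene nhr-85 had -0.48 ± 0.10 in that comparison (edgeR adjusted p = 0.0761). Among cuticlins, cutl-23 had the smallest p, at -0.93 ± 0.21 in the double mutant against wild-type (edgeR adjusted p = 0.0566). The gene cut-2 had -1.27 ± 0.30 in lamin Y59C against wild-type (edgeR adjusted p = 0.109). Also in lamin Y59C, doxa-1, whose product is the maturation partner of the dual oxidase, had 0.68 ± 0.17 (edgeR adjusted p = 0.133). The cathepsin gene cpz-1 had -0.74 ± 0.23 (edgeR adjusted p = 0.189) and the endocytic adaptor gene dab-1 -0.27 ± 0.08 (edgeR adjusted p = 0.174).

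Some lipocalin-related genes were also lowest in lamin Y59C a and highest in double mutant b. Of the 20 other apical matrix genes 5 were lowest in lamin Y59C a and highest in double mutant b, namely sym-1, lpr-3, lpr-4, lpr-5 and lpr-6. Of all tested genes 3.70% had this order, a share that stands beside each list count in this paragraph. The order was one already seen in the moulting genes above, and the counts have no test. Some rest on few counts, lpr-4 having 4 and lpr-3 having 17 in lamin Y59C a. The related lpr-7 did not have this order, at 0.725 and 0.663 CPM in lamin Y59C and 0.644 and 0.512 in the double mutant, beside 0.502 and 0.586 in wild-type. Products of the lpr family are known from the lining of the excretory duct and the precuticle. The gene lpr-3 was at 3.39 and 2.13 CPM in wild-type, 2.91 and 3.22 in the cec-4 mutant, 0.536 and 1.51 in lamin Y59C, and 1.41 and 4.70 in the double mutant. The leucine-rich repeat gene sym-1 was at 5.71 and 4.06, 4.19 and 3.90, 1.86 and 3.85, and 2.88 and 7.39 CPM in the same order. Of the cuticlin list 0 of 30 had that order of libraries, and of the regulator list 0 of 15. The patched-related gene ptr-4 and its relative ptc-3 were the 2 of 23 trafficking genes that did. The peroxidase gene skpo-2 was 1 of 7 in the cross-linking list, and cpz-1 was 1 of 19 in the collagen-processing list.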

How the data were processed

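Total RNA libraries of 8 samples (stranded kit, 50 bp single-end reads, per the labels' protocols) were analysed. The deposited table held raw counts per gene. Per the submitters' processing notes, the authors used Bowtie, the build ce10 and edgeR 3.24.0. How reads were counted, with which annotation and whether by strand, is not given in the sources used here. A deposited table of normalized values was not used. Symbols came from a WormBase ID table (19182 of 20392 genes). Positions and exon lengths were taken by gene ID from WBcel235, with no conversion from ce10.

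The counts were fitted with edgeR 4.0.16 in R 4.3.3. Genes of low counts were removed by filterByExpr, which left 14355. Libraries were scaled by TMM, and 1 quasi-likelihood fit held all 8 libraries with 1 mean per group. P-values were two-sided and adjusted by Benjamini-Hochberg over all tested genes in each comparison, with calls at an adjusted p under 0.05. SE is the size of the log2 fold change over the square root of its F statistic, and 95% intervals use a t distribution with 10.03 degrees of freedom. CPM use TMM-scaled library totals. The fit was also run on simulated counts with known fold changes in lamin Y59C, drawn with the spread it had estimated. These counts held no disagreement between libraries shared by several genes, so the run does not bear on such genes here.

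The genes and lists were chosen with earlier results of these data known. The rule for named genes was to account for each of the 31, with up to 3 per role of highest mean CPM, and to name called genes of each list or those of smallest p. Values of further genes were chosen after they were seen. Alternatives were DESeq2 1.42.0, median-of-ratios scaling, no filter, a replicate block, fits of the 2 groups compared, and leaving out each library.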

Additional observations from a re-analysis of the deposited data

How the results depend on the processing

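The count of called moulting and matrix genes was 0 in all 8 comparisons, and it stayed 0 in each of them with median-of-ratios scaling, with the library letter as a replicate block, and without both lamin Y59C a and double mutant b, the last added after the data were seen. It was 1 for lamin Y59C against wild-type when only these groups were fitted (mlt-11), with 124 calls over all genes against 73. It was 1 for the double mutant against lamin Y59C without the filter on low counts (mlt-11; 182 calls over all genes against 97) and 1 with DESeq2 (dpy-6). Leaving out 1 library at a time, the count was 0 to 1 for the double mutant against wild-type (mlt-10 without cec-4 a, dpy-31 without cec-4 b; 432 and 440 calls over all genes against 317) and 0 in the other 7 comparisons. A count that stays at 0 says little there, since calls over all genes fell to as few as 8 for lamin Y59C against wild-type (without lamin Y59C a), 37 for the double mutant against wild-type (without double mutant a) and 6 for the double mutant against lamin Y59C (without either double mutant library). Without both lamin Y59C a and double mutant b they were 7, 44 and 4. The cause of these differences was not tested. Over all tested genes the block moved the calls from 73 to 27 for lamin Y59C against wild-type, from 317 to 146 for the double mutant against wild-type and from 97 to 28 for the double mutant against lamin Y59C. It moved them from 111 to 58 against the cec-4 mutant, from 281 to 169 for the transgene strains and from 17 to 10 for the cec-4 strains. The letters are not shown to pair the libraries, since deviations of same-lettered libraries correlated at -0.22 to 0.20. With the letters crossed in wild-type and the cec-4 mutant, a setting picked from those correlations, the counts were 2 for lamin Y59C, 5 for the double mutant against wild-type, 5 against lamin Y59C, 3 against the cec-4 mutant and 2 for the transgene strains, with 847, 1215, 547, 535 and 1159 calls over all genes. No fold change with an unadjusted p under 0.05 changed sign in any setting. That says little, since these fold changes were picked by their p in the main fit and the settings share libraries with it. Genes of few counts, such as mlt-8, mlt-9, qua-1 and mlt-11 in lamin Y59C a (14 counts), are limited by depth, and bli-5 could not be compared.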
